A study of Homo sapiens with 6 samples.

Results

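Mixed-species barcodes are cell barcodes under which transcripts of both a human and a mouse cell line were counted. They were described in a Drop-seq library labelled with 25 PCR cycles and 1000 cells. The 1000 barcodes with the most counts were taken, ties going by barcode name, and those with more than 10% and less than 90% of their counts on human transcripts were kept. The members were thus chosen by the measured share of human counts and by depth. This left 159 of 1000 barcodes (15.9%, 95% interval 13.7 to 18.3), out of 323970 barcodes in the library. The other barcodes of the 1000 were 251 human cells, with at least 90% human counts, and 590 mouse cells, with at most 10%, and 322970 barcodes lay outside the 1000. Because these values chose the members, they are given as a description with no test.

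The study mixed a human line labelled JJN3 with a mouse line labelled 5TGMG1 (5TGM1 in the study's text), both called myeloma lines in the labels, and the labels name no drug or other treatment of the cells. Cells were captured with Drop-seq on the Nadia system, whose beads carried barcodes built from homotrimers, blocks in which every base is written in triplicate, and the cDNA was read on nanopore instruments. Drop-seq libraries with 30 and 35 cycles and 500 labelled cells, and 10X Chromium libraries with 30 and 35 cycles and 2000 labelled cells, were not used to choose the members. The Drop-seq pair gave a reading of the same barcodes, of their species, entries and human genes, and the 10X pair only a count of shared barcodes. Each group was 1 library, so no difference had a replicate check and no test was run, and the cells behind a barcode share that library and its PCR. All intervals are 95% intervals (Clopper-Pearson for shares, conditional binomial for ratios) that cover counting error only. Counts of genes and lists sum isoforms, which can repeat the same molecules, so their intervals can be too narrow.

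In droplet methods each cell is meant to meet its own bead, and every RNA molecule it releases receives the barcode of that bead together with a unique molecular identifier (UMI), so that PCR copies can be counted once. A barcode with transcripts of both species can come from a droplet with a cell of each species, from free RNA in the droplets or from a barcode read or shortened to the same letters as another. Mixing a human with a mouse line makes such barcodes visible, while a pair of cells of the same species under 1 barcode is not seen. Which of these applied to any barcode was not tested.

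Every stored barcode had 10 bases, and the sequences of a few show the kinds of barcode among the members. The 3 deepest members and the 1 deepest with a human majority above 80% are given first, as examples of deep barcodes with a low, an even and a high human share.

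Deepest member: atggaaggaa

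Member at 44.9% human: gaggttcgta

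Member at 53.4% human: caggcggagc

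Deepest above 80% human: gacgaatgtg

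The barcode atggaaggaa held 2203 counts, of which 222 were human (10.1%), and lay just inside the lower limit. The barcode gaggttcgta held 688 human and 844 mouse counts (44.9% human), and caggcggagc held 764 human and 666 mouse counts (53.4% human). The barcode gacgaatgtg held 995 human and 154 mouse counts (86.6% human). At 30 and 35 cycles the human share was 45.7% and 46.7% for gaggttcgta, 46.7% and 45.6% for caggcggagc, and 86.4% and 87.4% for gacgaatgtg. For atggaaggaa it was 8.45% and 9.20%, below the limit of 10%.

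Some members, like some cells, differed by 1 base from a deeper barcode of the 1000. The pairs that follow were picked, with their values known, to show a member beside a mouse cell, a human cell and another mixed barcode. The base that differs is in capitals, and the substitution gives the base of the deeper barcode, the position counted from the first stored base, and the base of the member.

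Member of 544 counts: Gggtaacacc

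Its deeper neighbour, a mouse cell (T1G): Tggtaacacc

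Member of 267 counts: agaagtaCca

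Its deeper neighbour, a mouse cell (A8C): agaagtaAca

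Member of 210 counts: gGggcacggg

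Its deeper neighbour, a human cell (A2G): gAggcacggg

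Member of 202 counts: Taggcggagc

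Its deeper neighbour, a mixed barcode (C1T): Caggcggagc

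The first of these members was 16.7% human and its neighbour of 3484 counts was 5.37% human. The second was 51.7% human beside a neighbour of 1337 counts at 3.37%, so the member held a larger human share than the neighbour. The member of 210 counts was 60% human beside a neighbour of 804 counts at 97.6%, and that of 202 counts was 46.0% human beside a neighbour of 1430 counts at 53.4%. In the order given, these 4 members were 23.8%, 83.6%, 17.0% and 53.3% human at 30 cycles and 25.9%, 63.1%, 39.4% and 25.0% at 35 cycles, so the shares of such shallow barcodes moved widely between libraries.

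The 159 mixed barcodes held 48857 counts, 2.11% of the 2311090 UMI counts in the library. Of these, 27401 were human (56.1%) and 21456 were mouse. Human transcripts were the majority in 81 barcodes, which together held 28068 counts at 80.5% human, and mouse transcripts in 78 barcodes, which held 20789 counts at 23.2% human. The human share of single barcodes ran from 10.1% to 89.9%, with quartiles of 21.1% and 84.4% and a median of 51.1%. Between 10% and 30% human lay 57 barcodes, between 30% and 70% lay 40, and between 70% and 90% lay 62, so most members sat toward the ends of the range. The counts were spread unevenly, as 23 of the 159 barcodes held 50% of all their human counts and 30 held 50% of their mouse counts.

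The limits cut through a continuous range. The member nearest to the lower limit was 10.08% human with 2203 counts, and the barcode nearest outside was 9.97% human with 321 counts. At the upper limit the nearest member was 89.93% human with 814 counts and the nearest barcode outside was 90.09% human with 212 counts. The last barcode taken had 141 counts and the next had 140.

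**Figure D1:**
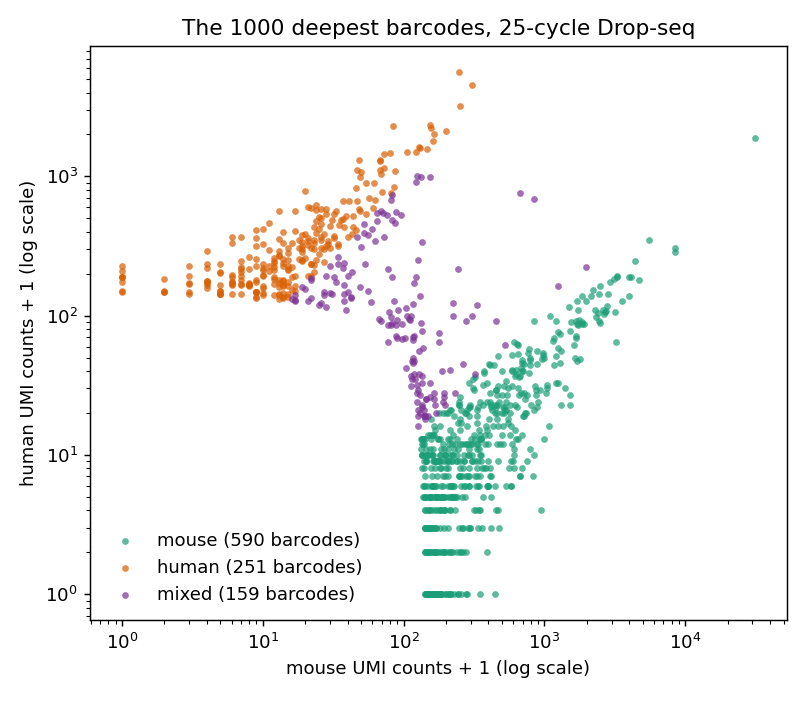
Human against mouse UMI counts, each plus 1 on log axes, for the 1000 deepest barcodes of the 25-cycle Drop-seq library, 1 point per barcode, coloured as mixed (159), human (251) or mouse (590). Mixed barcodes fill the range between the other clouds without a gap, and only a few reach 500 counts of both species.

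Mixed barcodes were shallower than single-species cells. Their counts ran from 141 to 2203 with a median of 194, against a median of 271 in human cells (up to 5859) and 282.5 in mouse cells (up to 33160), while barcodes outside the 1000 had a median of 3. Counts of the less frequent species had a median of 46 per mixed barcode (range 15 to 688), against 14 mouse counts per human cell and 9 human counts per mouse cell. The limit of 10% itself sets a gap between these medians. Among the shallower 500 of the 1000 barcodes the 111 mixed barcodes had a median of 172 counts and 36 of the less frequent species, while 118 human cells had medians of 179 and 8, and 271 mouse cells medians of 176 and 4.

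The share of barcodes that were mixed went up with falling depth. It was 7 of 100 barcodes in ranks 1 to 100 (7%, interval 2.86 to 13.9), 27 of 250 between ranks 250 and 500 (10.8%, 7.24 to 15.3), and 61 of 250 in the last 250 ranks of the 1000 (24.4%, 19.2 to 30.2). Beyond the 1000, it was 167 of 500 in the last 500 ranks of the deepest 2000 (33.4%, 29.3 to 37.7). In the same ranges the median count of the less frequent species fell from 161 to 22 in mixed barcodes and from 96 to 2 in the others. The counting error of a share is wider in a shallow barcode, and its part in this rise was not tested.

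**Figure D2:**
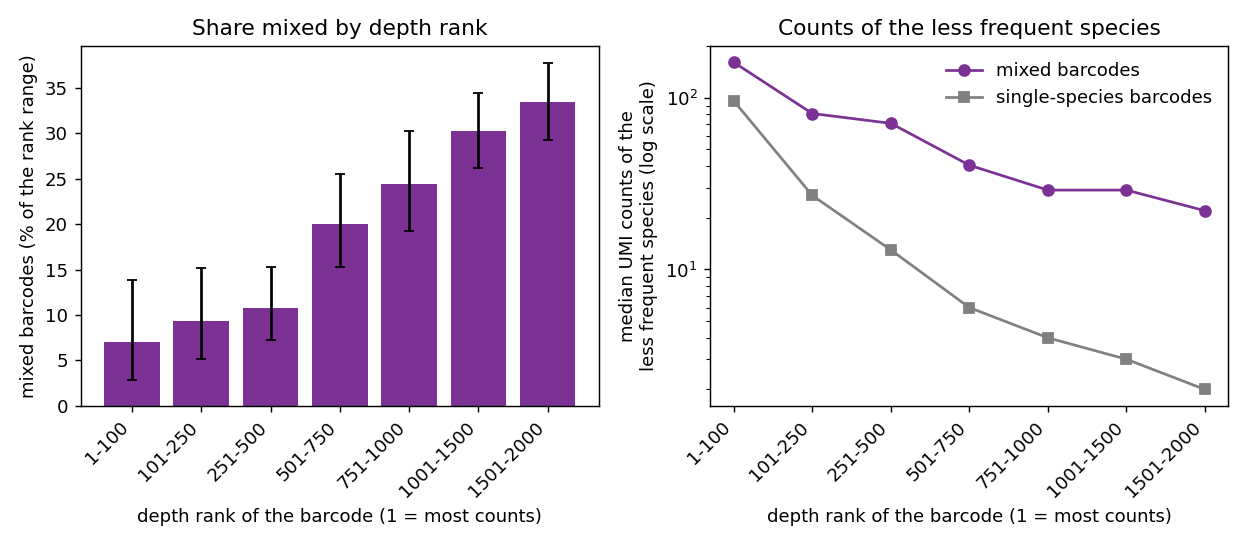
Left, percent of barcodes that were mixed in each range of depth rank, with 95% Clopper-Pearson intervals, and right, the median UMI count of the less frequent species in mixed and in single-species barcodes on a log axis. The share rises from 7% in ranks 1 to 100 to 33.4% in the last 500 of the deepest 2000, and the medians of mixed barcodes stay above those of the others in all 7 ranges.

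How the less frequent species was counted differed between mixed barcodes and cells. An entry is the count of 1 transcript under 1 barcode. In human cells 84.3% of the mouse counts came as entries of 1, and in mouse cells 80.7% of the human counts did, above the 74.3% and 74.1% of human and mouse counts in barcodes outside the 1000. In mixed barcodes it was 46.7% for mouse counts under a human majority and 35.6% for human counts under a mouse majority. For the species a cell was named for, it was 18.0% in human and 22.3% in mouse cells, but 32.4% and 43.9% in the human and mouse cells among the shallower 500 of the 1000 barcodes, where foreign counts were at 87.9% and 83.1%. Pooled over all members, the minority counts thus lay nearer to the own-species than to the foreign counts of these shallower cells. The members were not limited to that depth, and the pooled values hide differences by human share. In the 40 barcodes between 30% and 70% human, both parts were alike, with 23.7% of human and 28.4% of mouse counts in entries of 1. In the 62 barcodes between 70% and 90% human it was 15.4% of human but 57.8% of mouse counts, and in the 57 barcodes between 10% and 30% it was 46.5% of human but 29.5% of mouse counts. The less frequent species of members near a limit therefore came more often as entries of 1 than either species did in the middle of the range.

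With all entries below 3 left out, 82 of the 159 members were still between 10% and 90% human. Of the others, 46 had at least 90% human counts, 29 had at most 10%, and 2 had no count left. The median member then held 126 counts.

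Species shares were then read in libraries that the choice of members had not used. Of the 159 barcodes, 150 were stored in the 30-cycle and 153 in the 35-cycle Drop-seq library, against 6 and 4 in the 10X libraries. According to the study, a Drop-seq PCR product was divided and its parts were amplified to different cycle numbers. The labels do not say whether these libraries came from that product. Because most barcodes were shared, their readings are not taken as independent of the 25-cycle library. At 30 cycles 88 of 150 were mixed again (58.7%, 50.3 to 66.6), 37 were human and 25 were mouse. At 35 cycles 91 of 153 were mixed again (59.5%, 51.3 to 67.3), 40 were human and 22 were mouse. Of the human cells 5 of 234 were mixed at 30 cycles (2.14%, 0.697 to 4.92) and of the mouse cells 14 of 545 (2.57%, 1.41 to 4.27). At 35 cycles it was 6 of 246 (2.44%) and 12 of 569 (2.11%). Members were therefore mixed again far more often than the cells around them, beyond the counting intervals. Of the 150 members stored in both libraries, 81 were mixed in both and 52 in neither. In the 10X libraries, which hold other beads, none of the 6 and 4 stored members was mixed, which with so few barcodes allows shares of up to 45.9% and 60.2%. The smallest value stored in the 30- and 35-cycle files was 3, against 1 at 25 cycles, so entries of 1 and 2 are missing there and a thin second species can vanish.

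Members in the middle of the range were mixed again most often. They also lay farthest from the limits of 10% and 90%, so part of this follows from the rule itself. A barcode beyond a limit can still hold both species, as atggaaggaa did. Between 30% and 70% human, 38 of 39 were mixed again at 30 cycles (97.4%, 86.5 to 99.9) and 38 of 39 at 35 cycles. Between 10% and 30% it was 26 of 52 (50%) and 31 of 53 (58.5%), and between 70% and 90% it was 24 of 59 (40.7%) and 22 of 61 (36.1%). Members still mixed with entries below 3 left out were mixed again in 68 of 79 cases (86.1%) at 30 cycles and 72 of 81 (88.9%) at 35 cycles. The rest were mixed again in 20 of 71 (28.2%) and 19 of 72 (26.4%). Across members the human share at 25 cycles and in the other library had a Pearson correlation of 0.88 (n = 150) at 30 cycles and 0.91 (n = 153) at 35 cycles, given as a description since these barcodes share libraries and may share cDNA. The median absolute move was 10.3 percentage points in both.

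**Figure D3:**
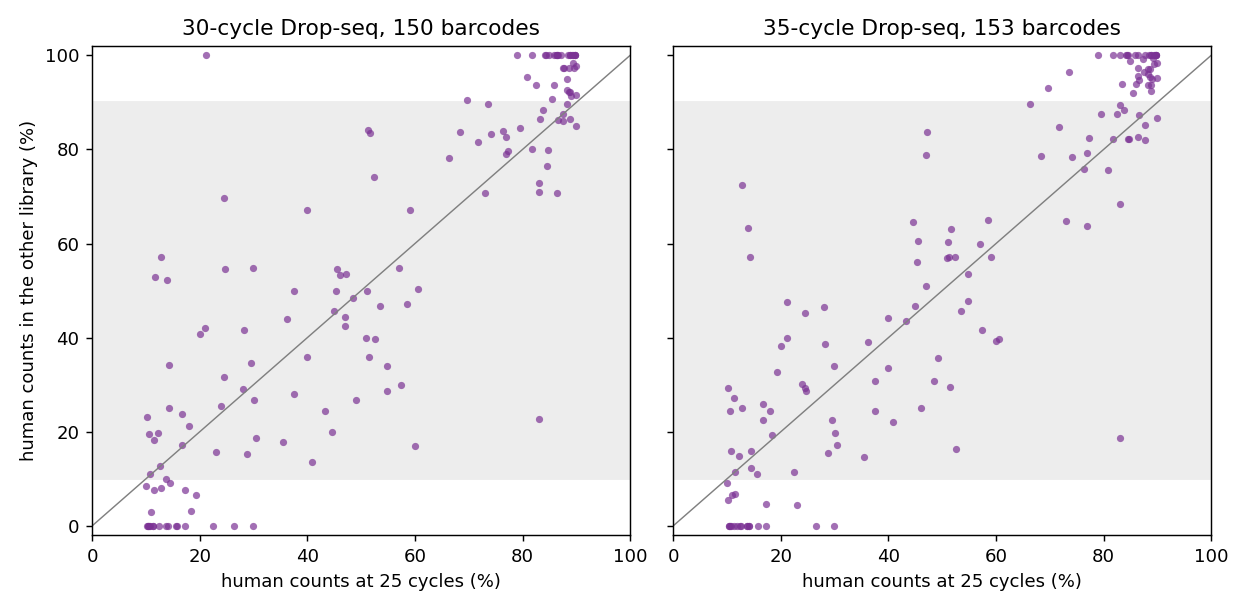
Human share of counts of each mixed barcode at 25 cycles against its share in the 30-cycle (left, 150 barcodes) and 35-cycle (right, 153 barcodes) Drop-seq library, with the line of equal shares and the range from 10% to 90% in grey. Members in the middle stay in the grey range, and many near a limit move to 0% or 100% in libraries whose smallest stored value was 3.

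Entries were followed into the other libraries as well, without a split by human share. Of entries of 3 or more at 25 cycles, the share stored again under the same barcode at 35 cycles was 66.3% (287 of 433) for mouse transcripts in members with a human majority and 68.5% (276 of 403) for human transcripts in members with a mouse majority. It was 73.3% and 65.4% for the majority species of these members, and 73.2% and 71.7% for the own species of human and mouse cells. Foreign entries, those of the other species in a cell, were also stored again when 3 or more, 63.4% (85 of 134) in human and 70.8% (264 of 373) in mouse cells, but there were few of them. The 35-cycle library stores no value below 3, so an entry of 1 can return only at a higher value. Depth was not matched between members and cells. Entries of 1 returned less often. It was 3.89% for mouse transcripts in members with a human majority and 6.73% for human transcripts in members with a mouse majority, above the 2.27% and 2.14% of foreign entries of 1 in cells, and below the 16.9% and 11.6% of own-species entries of 1.

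**Figure D4:**
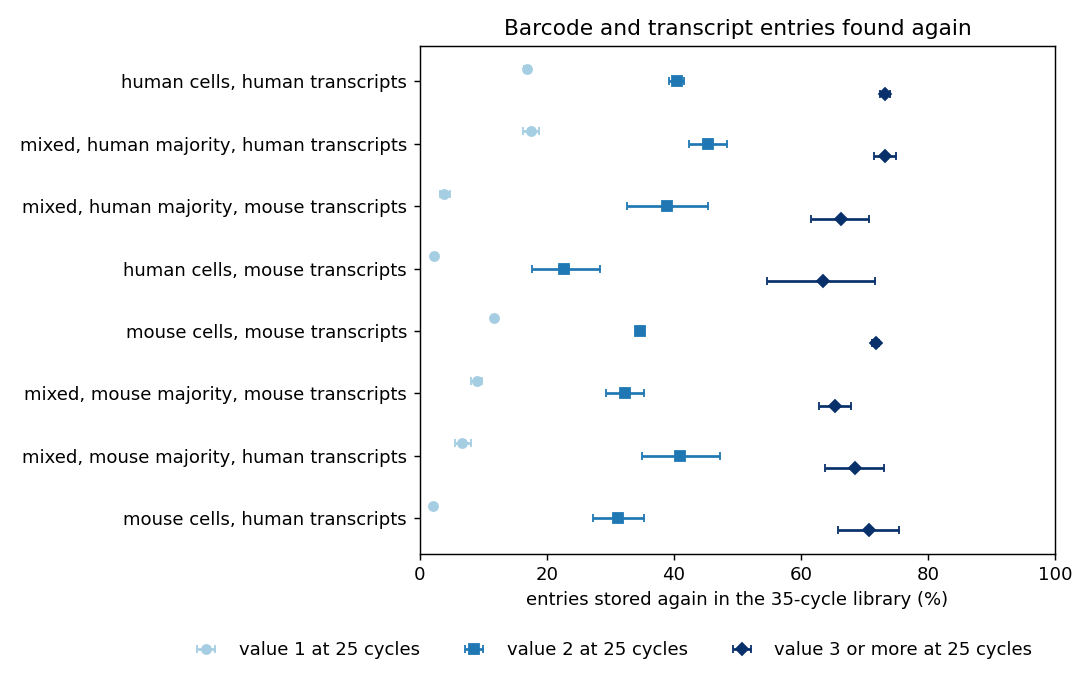
Percent of barcode and transcript entries of the 25-cycle library that were stored again in the 35-cycle library, by their value at 25 cycles (1, 2, or 3 or more), for majority and minority species of mixed barcodes and for cells, with 95% Clopper-Pearson intervals. Entries of 3 or more return at 63.4% to 73.3% in every set, and entries of 1 separate the sets, from 2.14% to 17.5%.

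Among the 1000 barcodes, 49 mixed barcodes had another 1 mismatch away (30.8%, 23.7 to 38.6), fewer than the 37.8% of human and 59.5% of mouse cells. A deeper barcode 1 mismatch away was found for 35 members (22.0%, 15.8 to 29.3). It was found for 26.3% of human and 39.7% of mouse cells, so it was no more frequent among members. The deepest such neighbour of a member was a mouse cell for 21, a mixed barcode for 11 and a human cell for 3. A deeper neighbour was found for 26 of the 78 members with a mouse majority (33.3%) and for 9 of the 81 with a human majority (11.1%). The mismatch lay at position 1 in 14 of the 35 pairs, as in Gggtaacacc and Taggcggagc above. Members with a deeper neighbour were mixed again at 30 cycles in 17 of 29 cases (58.6%, 38.9 to 76.5) and members without in 71 of 121 (58.7%, 49.4 to 67.6), and at 35 cycles in 20 of 32 (62.5%, 43.7 to 78.9) and 71 of 121. The intervals of both overlapped widely. Mixed barcodes held more G, 35.8% of their bases against 29.8% in human cells, 31.7% in mouse cells and 28.5% outside the 1000. Whether barcode errors made any member was not tested.

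Mixed barcodes did not hold more kinds of transcript than cells. Thinned to 100 counts each, which left no barcode out, they had a median of 61 transcripts (quartiles 45.5 and 76), human cells 70 (55 and 81) and mouse cells 78 (68.25 and 86). The medians were 59 with a human and 62 with a mouse majority. Without thinning the medians were 106, 135 and 163. The ranges of all sets overlapped.

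The human part was set against the markers of its labelled cell type. Plasma cells, from which myeloma arises, are known for immunoglobulin secretion, and T cells for the T cell receptor and CD3 molecules. The plasma cell list of 10 genes gave 6 of the 27401 human counts in mixed barcodes, all of POU2AF1, a transcriptional coactivator of B cells, and 15 of 115245 in human cells, all of MZB1, a chaperone of antibody-secreting cells. No transcript of the immunoglobulin kappa, lambda or heavy chain lists was matched. The T cell list gave 167 counts in 23 mixed barcodes, 0.609% of human counts (0.521 to 0.709), and 353 in human cells, 0.306% (0.275 to 0.34). It was 0.434% in members with a human majority and 1.43% in members with a mouse majority, and 0.935% (0.789 to 1.10) of the human counts in mouse cells, above the share over all mixed barcodes. In human cells the T cell list thus gave 353 counts against 15 for the plasma cell list, so these markers did not follow the labelled type. The lists were of unequal size, with 5 genes (15 transcripts) counted for plasma cells and 13 genes (48 transcripts) for T cells. The study's cell culture section and its legend for the 10X mixing name Jurkat, a T cell line. The labels and the Drop-seq methods have JJN3. The line is named here only as labelled, and its identity was not tested.

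Of the 24 lists 19 had matched transcripts, and the T cell list had a log2 ratio of 0.99 (0.72 to 1.26) to human cells, with the larger share lying in mouse cells and in members with a mouse majority, as given above. TRBC1 (chr7:142791694-142793368 on hg38), the constant part of the T cell receptor beta chain, had 56 counts in 11 mixed barcodes and 74 in 20 human cells, and was in 12 of 590 mouse cells, with a log2 ratio to human cells of 1.67 (1.14 to 2.19). On the same barcodes its log2 ratio was 2.21 at 30 and 1.48 at 35 cycles, and 1.63 against the human cells among the shallower 500 of the 1000 barcodes (the shallower human cells from here on). CD1E (chr1:158353696-158357553), a CD1 family gene that was also on the T cell list, had 59 counts against 76, but 45 of the 59 lay in 1 barcode. Of the 59, 58 lay under a mouse majority, and against the shallower human cells the log2 ratio of CD1E was -0.11. LCK, the kinase of the T cell receptor, had 22 counts, all in 1 barcode, against 2 in human cells. TRBC1, CD1E and LCK were the most counted genes of the list in mixed barcodes. The summed counts of its other genes took a smaller share of human counts in mixed barcodes than in human cells. The higher ratio of the T cell list therefore rested on TRBC1, CD1E and LCK, and most CD1E and all LCK counts lay in 1 barcode each.

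Of the 19 lists, 12 were lower and 7 higher in mixed barcodes than in human cells as shares of human counts. Over all 453 human transcripts compared with human cells, 9.27% were higher and 32.7% lower by 2-fold or more, and the counts for each list that follow are to be read beside these shares. Genes of the mitochondrial genome, which encode subunits of the respiratory chain, made up 2.73% (2.54 to 2.93) of human counts against 2.56% (2.47 to 2.65), and none of the 11 transcripts compared differed by 2-fold. MT-CO1 (chrM:5904-7445), a subunit of cytochrome c oxidase, was in 32 mixed barcodes with 181 counts, at 0.661% of human counts against 0.671% in human cells and 0.578% outside the 1000. MT-CO2 (chrM:7586-8269), another subunit, had 150 counts in 19 barcodes and a log2 ratio of 0.94 (0.66 to 1.23), and 0.49 and 0.73 at 30 and 35 cycles. The mitochondrial part of the human counts was therefore near that of cells, with MT-CO2 above it.

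Ribosomal protein genes, which build the translation machinery, took 13.3% (large subunit) and 9.76% (small subunit) of human counts, against 14.5% and 11.2% in human cells. Over 129 transcripts of the large subunit the median log2 ratio was -0.04, with 14 higher and 35 lower by 2-fold, shares near those over all 453 transcripts, whose median was -0.37. Over 92 of the small subunit it was -0.34, with 4 higher and 10 lower. RPL29 (chr3:51993522-51995895) was higher, with 221 counts in 11 mixed barcodes against 158 in 15 human cells and a log2 ratio of 2.56 (2.26 to 2.86). Its ratio was 2.49 at 30 and 3.24 at 35 cycles and 3.33 against the shallower human cells. RPL15 had 360 counts in 14 barcodes and a ratio of 1.36 (1.17 to 1.56), but 0.49 and 0.83 at 30 and 35 cycles. These genes have many processed copies in the genome, so their counts can be shared with near-identical sequences.

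Glycolysis genes took 0.828% against 1.21% of human counts, a log2 ratio of -0.54 (-0.75 to -0.34), and 0 of 8 transcripts were higher and 5 lower by 2-fold, beside 9.27% and 32.7% of all transcripts. GAPDH (chr12:6534512-6538374), the glycolytic dehydrogenase, had 33 counts in 7 of 159 mixed barcodes against 834 in 52 of 251 human cells, a log2 ratio of -2.59 (-3.14 to -2.09), and was in 11 of 590 mouse cells. In the 30-cycle library it had 0 counts in mixed barcodes and 290 in human cells, in the 35-cycle library 9 and 416, and against the shallower human cells its ratio was -3.06. LDHB, a subunit of lactate dehydrogenase, went the other way at 0.56, but 68 of its 80 counts lay in 1 barcode. GAPDH was therefore low in these mixed barcodes at either depth of the cells compared. The other libraries gave the same direction, but they read the same barcodes again and are not independent support. They also store no value below 3, so thin entries are missing there.

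Cell cycle and DNA replication genes had a log2 ratio of -0.60 (-0.80 to -0.41), with 0 higher and 5 lower of 10 transcripts, beside the same 9.27% and 32.7%. STMN1 (chr1:25884181-25906991), a regulator of microtubules, had 25 counts in 8 barcodes against 424 in 30 human cells and a ratio of -2.01 (-2.66 to -1.43), and it had 0 counts in mixed barcodes at 30 and 35 cycles against 179 and 233 in human cells. Those libraries store no value below 3, and no mixed barcode held more than 4 STMN1 counts at 25 cycles, so these zeros add little. H2AZ1, a histone variant, had 130 counts in 12 barcodes and a ratio of 0.74 (0.43 to 1.03). High mobility group genes, whose products bind and bend DNA, had a ratio of -0.59 (-0.87 to -0.31). HMGB1 (chr13:30456704-30617597) had 41 counts in 7 barcodes against 431 in 39 human cells, a ratio of -1.32 (-1.82 to -0.86), with -1.38 and -0.93 at 30 and 35 cycles. Of the 431 counts in human cells, 131 lay in 1 barcode. Nucleolar and acidic chaperones had a ratio of -0.64 (-0.82 to -0.46), proteasome genes -0.45 (-0.69 to -0.22) and splicing regulators -0.31 (-0.53 to -0.10), and the 83 counts of HNRNPC among the last lay in 1 barcode. On the same barcodes at 30 and 35 cycles the ratio was -0.05 and -0.75 for the cell cycle list, -0.57 and -0.09 for the high mobility group list, and -1.95 and -1.34 for the splicing regulators.

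Heat shock chaperones, which fold proteins, had a log2 ratio of 0.42 (0.25 to 0.59) as a list, with 2 higher and 2 lower of 8 transcripts, beside 9.27% and 32.7% of all transcripts. HSP90AA1 (chr14:102080742-102139699), the inducible cytosolic HSP90, had 166 counts in 6 barcodes against 197 in 20 human cells, a ratio of 1.83 (1.52 to 2.13), and 1.98 and 1.44 at 30 and 35 cycles. HSPD1 (chr2:197486584-197516737), the mitochondrial chaperonin, had 27 counts in 6 barcodes against 302 in 26 human cells, a ratio of -1.41 (-2.04 to -0.84), and -2.56 and -1.75 in the other libraries. The 2 genes thus lay on opposite sides of human cells in all 3 libraries, which read the same barcodes and are not independent. Their counts rested on 6 mixed barcodes each, and 68 of the 166 for HSP90AA1 lay in 1 of them. Of the 166, 82 came from each of 2 transcripts, both in 6 barcodes, so the sum may hold the same molecules more than once.

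Actin and actin-binding genes had a log2 ratio of 0.52 (0.38 to 0.65) at 25 cycles but 0.11 and -0.16 in the other libraries, and ferritin genes, which store iron, 0.46 (0.11 to 0.79) but -3.66 and -4.08. For ferritin, 52 of the 97 counts lay in 1 barcode, and in the other libraries only 3 counts were left in mixed barcodes. Translation elongation genes had -0.31 (-0.46 to -0.17), nuclear genes of oxidative phosphorylation -0.01 (-0.12 to 0.11), endoplasmic reticulum genes -0.11 (-0.48 to 0.25), class I MHC genes 0.22 (-0.47 to 0.86) on 26 counts, and immediate early genes -1.12 (-2.49 to 0.01) on 7 counts. These ratios pool members that differed by majority species. Under a human and a mouse majority, endoplasmic reticulum genes took 0.106% and 1.12% of human counts, against 0.306% in human cells. For ferritin it was 0.186% and 1.14% against 0.258%, and for elongation 1.27% and 3.57% against 2.07%. Actin genes, at 2.64% and 0.415% against 1.57%, and heat shock genes, at 1.63% and 0.249% against 1.03%, went the other way. With each of 4 other settings tried, 8 of the 19 lists changed sign in at least 1 and 11 kept it. Those that changed were the plasma cell, mitochondrial, elongation, actin, heat shock, endoplasmic reticulum, ferritin and oxidative phosphorylation lists.

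**Figure D5:**
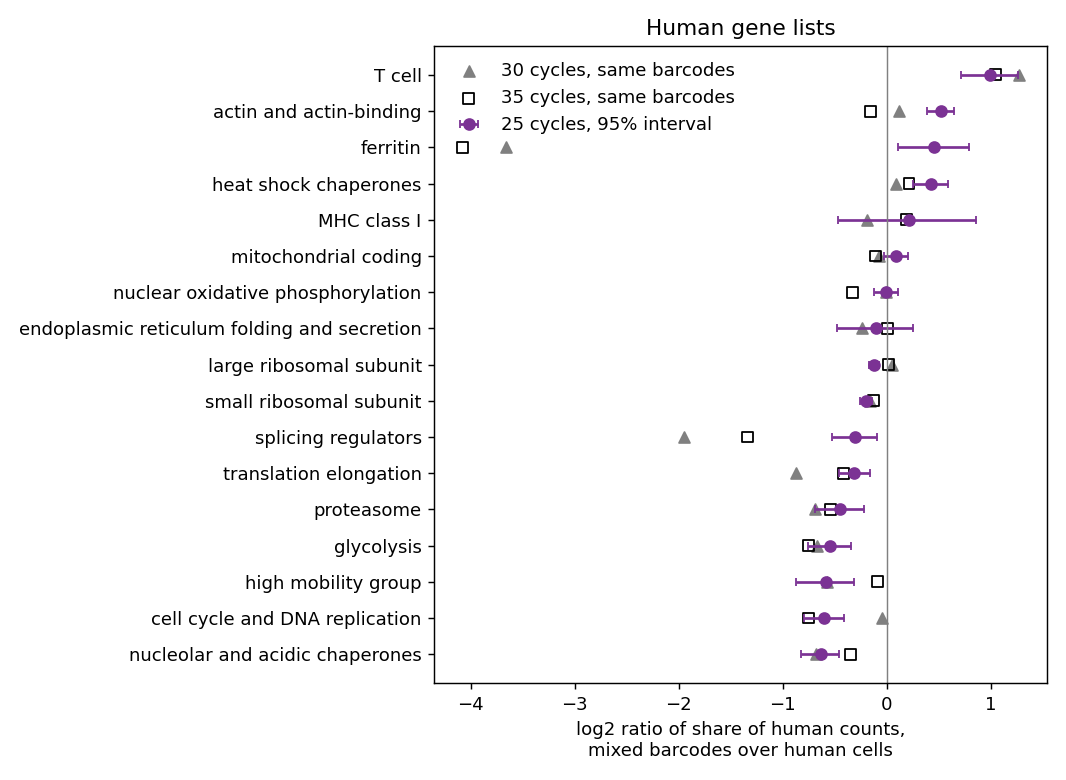
Log2 ratio of each human gene list's share of human counts in mixed barcodes over human cells, for the 17 lists with at least 20 counts in mixed barcodes, at 25 cycles with 95% conditional binomial intervals and on the same barcodes at 30 and 35 cycles. The T cell list is highest in all 3 libraries, while ferritin moves from 0.46 to -3.66 and -4.08.

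Transcript by transcript, 453 human transcripts had at least 10 counts expected in mixed barcodes. Of these 42 were higher (percent called 9.27) and 148 lower (percent called 32.7) by 2-fold or more than in human cells, 190 in all (percent called 41.9), with a median log2 ratio of -0.37. Scaled by the median of ratios, 86 were higher and 125 lower. Against the shallower human cells the split turned to 193 higher and 126 lower, so the direction of the whole set depended on the depth of the cells compared. A transcript compared was in a median of 6 mixed barcodes and 26 human cells, which makes single barcodes weigh heavily.

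The lowest 5 transcripts by this ratio had no count in any mixed barcode. They were OCIAD1 (ENST00000264312, 9 exons, chr4:48831088-48861815), a mitochondrial and endosomal protein, with 69 counts in 17 human cells, FDPS (ENST00000368356 with 69 and ENST00000447866 with 63 counts), an enzyme of the isoprenoid pathway, CARHSP1 (ENST00000611932) with 65, and CRYZL1 (ENST00000290244) with 61. Against a floor of 3 counts over all mixed barcodes, OCIAD1 was at least 5.47-fold lower and CRYZL1 at least 4.83-fold lower. None had a count in mixed barcodes at 30 or 35 cycles either, where OCIAD1 had 20 and 34 counts in human cells. The 40 counts of ENST00000368356 in 1 human cell show that such differences can rest on few cells.

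The highest 5 comprised an RPL29 transcript (ENST00000479017, 4 exons, chr3:51993629-51995830), with 35 counts in 9 mixed barcodes against 18 in 11 human cells and a log2 ratio of 3.01 (2.17 to 3.94), and 4 identifiers that GENCODE 44 does not pair with a gene. Of these ENST00000633925 had 97 counts in 24 mixed barcodes against 19 in 14 human cells, a ratio of 4.39 (3.70 to 5.22), with 4.27 and 3.89 at 30 and 35 cycles. ENST00000604952 had 113 in 26 mixed barcodes against 27 in 18, a ratio of 4.12 (3.52 to 4.80). These unnamed transcripts were also counted in mouse cells, ENST00000604952 with 181 counts in 86 of them, 1.18% of the human counts there against 0.0234% in human cells.

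Of 1305 human transcripts with enough counts, 8 took a larger share of all counts in mouse cells than in human cells, and 5 of the 8 had no gene name. The 8 took 2.22% (2.05 to 2.40) of the human counts in mixed barcodes, 1.29% under a human and 6.58% under a mouse majority, against 0.188% in human cells, 8.23% in mouse cells and 2.60% outside the 1000. Of 3088 mouse transcripts 11 were likewise larger in human cells, and they took 0.345% of the mouse counts in mixed barcodes. With both sets left out, 149 barcodes were mixed, of which 146 were among the 159. The other 13 members were no longer mixed, and 3 barcodes became mixed.

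Against barcodes outside the 1000, which lie below the cells in depth, 385 human transcripts were compared. Of these 48 were higher (percent called 12.5) and 86 lower (percent called 22.3) by 2-fold or more, 134 in all (percent called 34.8), with a median log2 ratio of 0.04. Both HSP90AA1 transcripts compared (ENST00000216281 and ENST00000334701) had 82 counts in 6 mixed barcodes against 485 and 481 of 626652 outside, log2 ratios of 1.96 (1.60 to 2.29) and 1.97 (1.61 to 2.30). A transcript of RPL10A (ENST00000467020), a ribosomal protein, was also among the 5 highest, at 1.79 (1.32 to 2.21). The lowest were RPL28 (ENST00000560583), NCL (ENST00000322723), the nucleolar protein nucleolin, and SKP1 (ENST00000353411), a subunit of SCF ubiquitin ligases, with 0 counts in mixed barcodes against 357, 275 and 269 outside, which against the floor of 3 counts makes them at least 5.20-fold, 4.01-fold and 3.92-fold lower. Isoforms of a gene had near-equal counts here, so they are not independent of each other.

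Lists were compared with these barcodes too. T cell genes took 0.385% of human counts outside the 1000, ribosomal proteins of the large subunit 12.8% and of the small subunit 8.98%, and mitochondrial genes 2.30%. In log2 ratios of mixed barcodes to outside, T cell genes were at 0.66 (0.43 to 0.89), heat shock chaperones at 0.71 (0.56 to 0.87), oxidative phosphorylation at 0.27 (0.16 to 0.37) and splicing regulators at -0.88 (-1.08 to -0.69). These barcodes and human cells differed from each other too, and GAPDH was at 0.429% outside, between the 0.120% of mixed barcodes and the 0.724% of human cells.

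For the mouse part, the files do not pair mouse identifiers with gene names, so identifiers are given. The most counted, ENSMUST00000103410, had 408 counts in 101 of 159 mixed barcodes, 1.90% of their mouse counts against 1.85% in mouse cells, 1.79% of the mouse counts in human cells and 1.57% outside the 1000. ENSMUST00000103328 had 376 counts in 93 barcodes, 1.75% against 1.71% in mouse cells. Both shares lay near those of mouse cells.

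Over 295 mouse transcripts compared with mouse cells, 14 were higher (percent called 4.75) and 66 lower (percent called 22.4) by 2-fold or more, 80 in all (percent called 27.1), with a median log2 ratio of -0.23 and an SD across transcripts of 0.97, against 1.69 for the human comparison. Scaled by the median of ratios it was 32 higher and 44 lower. The highest were ENSMUST00000029722, with 50 counts in 11 mixed barcodes against 238 in 81 mouse cells and a log2 ratio of 1.84 (1.35 to 2.27), of which 30 counts lay in 1 barcode, and ENSMUST00000138502, with 33 against 179 and 1.65 (1.05 to 2.18). The lowest, ENSMUST00000148385 and ENSMUST00000042901, had 0 counts against 182 and 180, at least 3.60-fold and 3.56-fold lower.

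Against barcodes outside the 1000, 276 mouse transcripts were compared, and 10 were higher (percent called 3.62) and 45 lower (percent called 16.3) by 2-fold or more, 55 in all (percent called 19.9), with a median log2 ratio of -0.21. Scaled by the median of ratios it was 18 and 35. ENSMUST00000138502 was highest here too, at 1.37 (0.80 to 1.86), followed by ENSMUST00000222266, at 1.36 (0.90 to 1.76). ENSMUST00000032961 had 0 counts against 757 outside, at least 4.76-fold lower, and ENSMUST00000131174 had 1 against 575.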

How the data were processed

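The authors deposited UMI counts for each barcode and Ensembl transcript, as whole numbers without normalization. Per their methods, Guppy called the bases of nanopore reads, barcodes and UMIs were located by the polyA tail and primers, and minimap2 mapped reads to human hg38 and mouse mm10 transcripts. UMIs of Drop-seq were collapsed as monomers or homotrimers, and which was used for these files is not stated. Smallest stored values were 1 (25 cycles), 3 (other Drop-seq) and 2 (10X), and all barcodes of the 25-cycle library had 10 bases, so different beads can share a stored barcode. A Drop-seq sample with read numbers only was not used here.

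Python 3.11.15, numpy 2.4.6, pandas 2.3.3 and scipy 1.17.1 were used. Species was read from the identifier prefix, and 25940 of 28533 human identifiers (90.9%) matched GENCODE 44. Counts were scaled within the species, log2 ratios of transcripts used a pseudocount of 0.5 counts, and transcripts with at least 10 counts expected in mixed barcodes were compared. A difference of 2-fold was called, by size alone and with no test. Ratios of lists and genes used no pseudocount, and summed the isoforms of a gene. Such sums can count a molecule once for each isoform, which inflates the counts and narrows the intervals. No doublet caller was run, since mixed barcodes are the subject and doublets of 1 species stay among the cells. Thinning drew 100 counts per barcode. The comparison was tested on simulated data. Depth was 2311090 counts at 25 cycles, 528502 and 827152 in the other Drop-seq libraries and 494147 and 740994 in 10X.

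Named transcripts were the 5 highest and 5 lowest of each comparison, the 5 most counted of each species, and the 3 most counted genes of each list, and only some are printed. The members and lists were chosen with earlier results of these data known. Alternatives changed the limits, the number of barcodes, the smallest value, the minimum, the pseudocount, the scaling, the weighting and the cells compared.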

Additional observations from a re-analysis of the deposited data

How the results depend on the processing

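The number of mixed barcodes depended on the limits and the barcodes taken: it was 440 with limits of 5% and 95%, 68 with 20% and 80%, 48 among the 500 deepest, 477 among the 2000 deepest and 340 among barcodes with at least 100 counts. It was 156 with entries below 3 left out, although only 82 of the 159 stayed mixed. Transcripts called in the human part against human cells numbered 635, 76 and 7206 (190 as reported) with at least 5, at least 20 and no minimum of expected counts, 44 with limits of 20% and 80%, and 319 against the human cells among the shallower 500 of the 1000 barcodes. In the same order of minimum and limits, calls were 221, 29, 11774 and 42 (80 as reported) for the mouse part against mouse cells, and 439, 39, 19240 and 23 (134 as reported) for the human part against barcodes outside. For the mouse part against barcodes outside they were 203, 21 and 18247 (55 as reported) with these minimums, and 97 with barcodes weighted equally. Fewer or more transcripts pass each minimum, and tighter limits leave fewer barcodes, by construction. For the comparison by depth and the equal weights the cause was not tested. The share of members mixed again with entries below 3 left out was 86.1% at 30 and 88.9% at 35 cycles. The ratio of transcripts per mixed barcode to those per mouse cell was 0.864 when thinned to 50 counts and 0.782 at 100. The other 34 alternatives of these results stayed within 1.5 times or the counting interval. For the named transcripts and the lists 64 values moved beyond it and 299 did not, and no such transcript or list called at 2-fold changed sign. A gene above 2-fold did change sign: CD1E, at a log2 ratio of 1.71 to human cells, was at -0.11 against the shallower human cells. Leaving out transcripts with a larger share in the other species, and comparing lists with these shallower human cells, were chosen after seeing the data. No paired analysis was possible because each group holds 1 library. Depth limits all comparisons, since a transcript compared was in a median of 6 human or 9 mouse mixed barcodes.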
